A study of Oryza sativa Japonica Group with 38 samples.

Results

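Among rice loci that the study's authors assembled and named with XLOC identifiers, 14 unspliced long noncoding RNAs had their highest poly(A)+ RNA level in seedlings kept in the cold. Each locus has 1 exon and no listed gene at the same coordinates on the other strand. Each exceeded every one of 6 other conditions in cold by at least 1 on the log2(FPKM + 1) scale, which is at least 2-fold after 1 FPKM is added. FPKM divides the fragments of a locus by its length and by library depth. The conditions were untreated seedlings, drought, heat, high light and high salt, and roots. Loci rich in root poly(A)- RNA were left out, which are those with 1 FPKM in root poly(A)+ or poly(A)- RNA and poly(A)- RNA at least 1 above poly(A)+ RNA on that scale. The 14 loci were found among 7231 listed genes, of which 3509 were XLOC loci and 3007 formed the pool that met every condition but the cold one. The loci were thus chosen by their poly(A)+ levels in these 7 conditions and by root poly(A)- RNA, and those values are given as a description without a test.

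Long noncoding RNAs are transcripts without coding capacity, and many plant examples change with stress. Oligo(dT) beads retain RNAs with a poly(A) tail, while RNAs that lack one, have a short one or are broken stay in the poly(A)- fraction. In Arabidopsis, antisense transcripts of the flowering repressor FLC, called COOLAIR, are among the best-known noncoding RNAs raised by cold. Rice is a chilling-sensitive crop, and its early cold response runs largely through transcription factors of the CBF/DREB family. Plants also cut some noncoding transcripts into small RNAs that direct silencing.

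The study sequenced 38 libraries of Oryza sativa japonica from 9 conditions, to find noncoding RNAs that respond to stress in different RNA fractions. Per the labels, seedlings were 2 weeks old and grew in days of 12 h at 28 °C and nights of 12 h at 22 °C. Some were untreated, and others were kept in cold (4 °C), heat (50 °C), drought by air drying, high salt (300 mM NaCl) or high light (50000 lux), and the labels give no duration. Untreated leaves, panicles and roots made up the remaining conditions, all labelled as 2 weeks old, panicles included. Each condition had whole-cell poly(A)+ and poly(A)- RNA, nuclear total RNA and small RNA. Drought had 2 libraries each for poly(A)+ and poly(A)- RNA, of which the files hold 1 column each, and every other group was 1 library. Whole reads recovered from the FPKM values gave 24.6 to 105 M reads (units of 1e6) for the long RNA libraries that entered comparisons, and 39.7 to 85.8 M for small RNA. With 1 library per group, ranges after a value are exact 95% Poisson intervals that cover counting error only. No marker genes are named in the lists, so the labelled tissues could not be checked against markers.

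A peak in cold by this margin was rare among unspliced loci. The 14 loci make up 0.466% of the pool, although 1501 pool loci had 1 FPKM or more in cold poly(A)+ RNA. By the same rule 49 loci peaked in untreated seedlings, 59 in drought, 61 in heat, 3 in high light, 23 in high salt and 97 in roots. With no margin, cold was the highest of the 7 conditions in 361 (13.6%) of 2646 pool loci with 10 reads. No pool locus was lowest in cold by the margin of the rule. Outside the pool, 15 annotated genes and 5 other XLOC loci met the cold margin, which makes 34 (0.47%) of the 7231 listed genes.

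**Figure D1:**
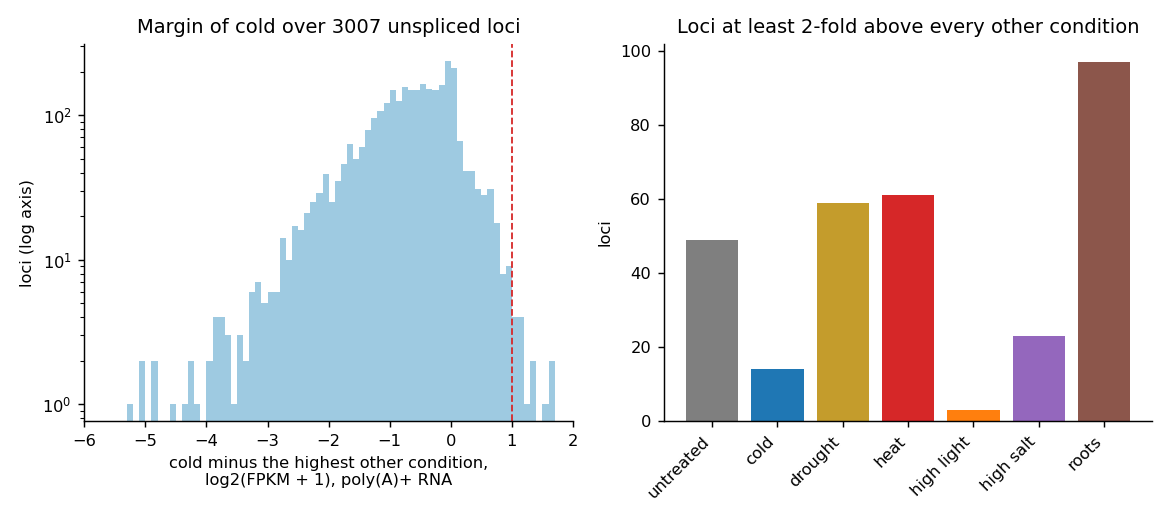
Left, the margin of cold over the highest other condition on log2(FPKM + 1) in poly(A)+ RNA (horizontal axis) against the number of loci (log axis) for 3007 unspliced loci, with the rule's margin of 1 as a dashed line. Right, the number of loci at least 2-fold above every other condition, from 3 in high light to 97 in roots, with 14 in cold.

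The loci were short and lay on 9 chromosomes. Their lengths ran from 201 to 818 nt with a median of 417.5 nt, against a median of 530 nt in the pool. Of the 14, 9 lay on the + strand and 5 on the - strand, and 4 lay on chromosome 4. The authors' deposited classes put 13 of 14 in the poly(A)+ class and 13 of 14 in the cytosol class, against 69.2% and 78.1% of the pool. The exception in both was XLOC_058822, classed bimorphic and nucleus. Those classes may rest on the same columns as the rule.

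The highest level belonged to XLOC_026604, a 411 nt locus on chromosome 12 (15330272 to 15330683, + strand, build IRGSP-1.0 per the submitters' processing notes). It had 59.1 FPKM (56.8 to 61.4) in cold, from 2489 reads. The other conditions were 27.4 FPKM in high light, 17.8 in untreated seedlings, 17.7 in high salt, 15.5 in drought, 12.3 in heat and 10.2 in roots. Cold thus stood apart, high light came next, and untreated seedlings and high salt were alike within counting error. The ratio of cold to untreated was 3.32 (3.03 to 3.65).

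XLOC_075374 on chromosome 6 (27797771 to 27798588, - strand, 817 nt) was measured at 29.97 FPKM (28.8 to 31.2) in cold. Untreated seedlings had 13.2 FPKM, heat 13.1, high light 12.5 and roots 11.5, while drought had 5.84 and high salt 3.15. This locus was thus present at a similar level in 4 conditions, higher in cold and lower in drought and high salt. Its ratio of cold to untreated, 2.27 (2.10 to 2.47), was the smallest of the 14. XLOC_026776 on chromosome 12 (17571879 to 17572475, + strand) had much the same order, with cold at 25.9 FPKM (24.6 to 27.2). It had 11.1 FPKM in high light, 10.3 in heat and 10.002 in untreated seedlings, 6.98 in roots, 6.84 in drought and 3.39 in high salt. High light, heat and untreated seedlings overlapped in their counting intervals.

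XLOC_017889 and XLOC_058822 had the widest margins on log2(FPKM + 1). On plain FPKM the ratio of cold to the next condition was higher in low loci, at 5.70 (3.19 to 11.1) in XLOC_069301 and 4.36 (2.04 to 10.7) in XLOC_086200, and in XLOC_039482, whose next condition held 2 reads. In cold, XLOC_017889 on chromosome 11 (782612 to 782871, + strand, 259 nt) stood at 16.1 FPKM (14.6 to 17.7), with drought at 4.52 (3.52 to 5.73), a margin of 1.63 on log2(FPKM + 1). Heat had 2.87 FPKM, high light 2.59, untreated seedlings 2.28, roots 1.80 and high salt 0.4996. Its ratio of cold to untreated, 7.07 (5.17 to 9.87), was the highest among the 13 loci with a read in untreated seedlings, though its interval overlapped that of XLOC_058822. In cold, XLOC_058822 on chromosome 4 (27175971 to 27176789, - strand, 818 nt) stood at 11.5 FPKM (10.8 to 12.2), with heat at 3.06 (2.64 to 3.52), a margin of 1.62. It had 1.81 FPKM in untreated seedlings, 1.25 in high salt, 1.21 in high light, 0.872 in drought and 0.418 in roots. Cold was 6.37 times untreated (5.22 to 7.83), and heat was the second condition whose interval lay above that of untreated seedlings.

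**Figure D2:**
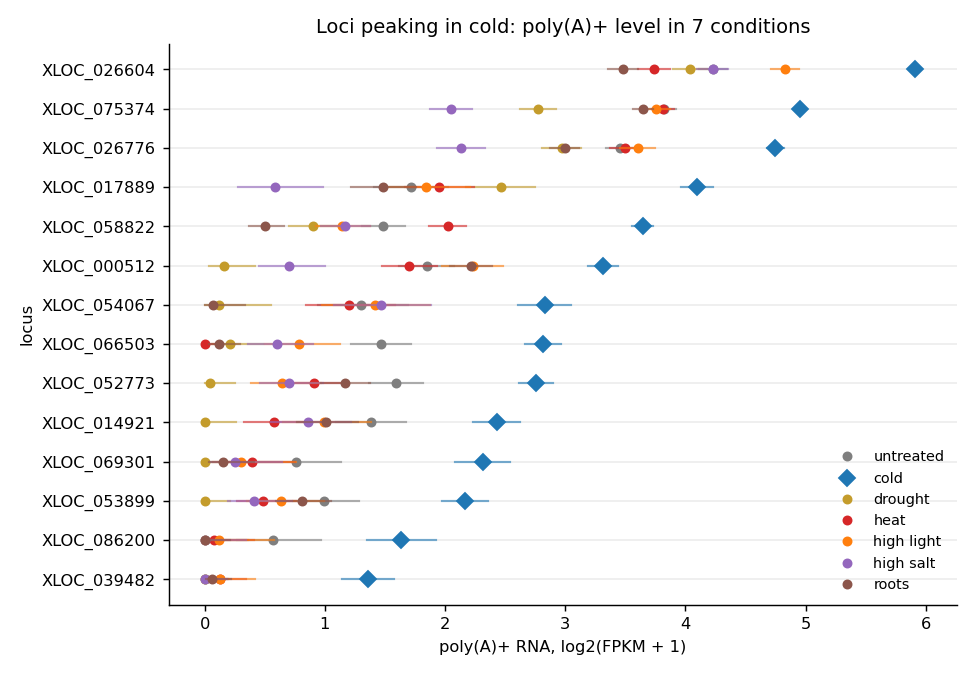
Poly(A)+ level on log2(FPKM + 1) (horizontal axis) of the 14 loci (rows) in 7 conditions, with exact 95% Poisson intervals as lines. The blue diamond for cold lies to the right of every other point in each row, as the rule requires. The 14 cold intervals do not overlap those of other conditions, which the margin of the rule favours in these same values.

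The next loci had cold levels between 5.76 and 8.96 FPKM. XLOC_000512 on chromosome 1 (3386720 to 3387159, + strand) was measured at 8.96 FPKM (8.10 to 9.87) in cold, 3.69 in high light, 3.65 in roots, 2.60 in untreated seedlings and 2.26 in heat. High salt had 0.626 FPKM, and drought 0.116 from 3 reads. Drought and high salt were again the low conditions.

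XLOC_054067, the shortest of the 14 (chromosome 4, 22229807 to 22230008, + strand, 201 nt), had 6.12 FPKM (5.09 to 7.28) in cold. High salt had 1.77 FPKM, high light 1.67, untreated seedlings 1.47 and heat 1.30, all overlapping, and drought and roots had 1 read each. It was the locus whose next condition was high salt. In cold, XLOC_066503 on chromosome 5 (21198518 to 21198953, - strand) reached 6.06 FPKM (5.35 to 6.82), with 1.76 (1.33 to 2.28) when untreated. It was under 1 FPKM in the other 5 conditions and listed at 0 in heat, which allows up to 0.0899 FPKM (3 reads). XLOC_052773 on chromosome 4 (10144031 to 10144519, + strand) was measured at 5.76 FPKM (5.11 to 6.46) in cold, 2.01 in untreated seedlings and 1.25 in roots. Heat, high salt and high light were under 1 FPKM, and drought had 1 read.

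The last 5 loci had under 5 FPKM in cold, and their levels elsewhere rest on few reads. In cold, XLOC_014921 on chromosome 10 (1386277 to 1386595, - strand) was at 4.39 FPKM (3.70 to 5.17), and untreated seedlings were at 1.60 (1.14 to 2.20). In the cold library XLOC_069301 on chromosome 6 (7517780 to 7518030, + strand) reached 3.98 FPKM (3.25 to 4.83), untreated seedlings 0.698 (0.372 to 1.19), and each other condition had at most 6 reads. XLOC_053899 on chromosome 4 (21194974 to 21195365, + strand) reached 3.49 FPKM (2.94 to 4.12) in cold, with 0.996 (0.667 to 1.43) when untreated. In these 3 loci untreated seedlings came second and drought was listed at 0.

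XLOC_086200 on chromosome 8 (18901375 to 18901597, + strand) had 48 reads in cold, or 2.11 FPKM (1.56 to 2.80), and 0.484 (0.209 to 0.953) in untreated seedlings from 8 reads. It had 1 read each in heat and high light and none in drought, high salt or roots. XLOC_039482 on chromosome 2 (24565272 to 24565696, - strand) had most of its poly(A)+ reads in cold. It had 1.56 FPKM (1.21 to 1.98) in cold from 68 reads, no read in untreated seedlings, drought or high salt, and 2 or 3 reads in heat, high light and roots. The exact lower end of its ratio of cold to untreated was 13.03. Set against the limit of 3 reads in the untreated library, without counting error in cold, the ratio was 16.47.

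Untreated seedlings were the next highest condition for 7 of the 14 loci, high light for 4, and drought, heat and high salt for 1 each. The 13 ratios of cold to untreated ran from 2.27 to 7.07, where the pool loci with 10 reads over the pair of libraries had a median of 0.848. All 14 loci passed the 2-fold rule for cold against untreated that their choice requires, and 6.06% of the 3134 listed genes at 1 FPKM in either column were higher by it. At the edge of the rule, XLOC_026604 (margin 1.08), XLOC_086200 (1.07) and XLOC_014921 (1.05) were just inside. Just outside were XLOC_045178 on chromosome 3 with 35.5 FPKM in cold against 17.3 in untreated seedlings (0.99), XLOC_022554 on chromosome 11 with 3.52 against 1.29 in heat (0.98) and XLOC_048492 on chromosome 3 with 10.9 against 5.13 in untreated seedlings (0.96).

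Most of the loci were below untreated seedlings in drought and high salt. In drought 5 of the 14 were listed at 0 and the median was 0.1003 FPKM, and 6 of the 10 loci at 1 FPKM in either column were 2-fold below untreated seedlings, against 51.2% of the pool. In high salt the median was 0.628 FPKM and 4 of 10 were 2-fold below, against 62.9% of the pool. XLOC_026604 (17.7 FPKM against 17.8) and XLOC_054067 (1.77 against 1.47) were close to their untreated level there. The whole libraries stood lower too, since the median difference from untreated over listed genes was -1.02 in drought and -1.17 in high salt on the log2 scale, and -0.14 in cold. With each library centred on its own median, 4 of the 14 loci kept the cold margin. Those were XLOC_075374, XLOC_058822, XLOC_000512 and XLOC_066503. Centring moves values of 0 as well. XLOC_086200 and XLOC_039482 had no read in drought or high salt, and high salt came next after centring, with margins of 0.52 and 0.24. The bulk values do not tell fewer cells of a type from less RNA per cell.

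Poly(A)- RNA is the first measure that did not choose the loci, apart from its root value. Cold levels there were between 0.0684 and 4.14 FPKM, and all 14 loci were above their untreated value, 5 of them with no untreated read. Most of the pool was above untreated too. Among its 1283 loci with 10 reads over both libraries, the lower quartile of the ratio was 1.84. The whole cold poly(A)- library stood higher, however, by a median of 0.80 on the log2 scale over 759 genes at 1 FPKM. Of 2 loci at that level, 1 was at least 2-fold higher in cold, against 32.1% of the genes tested by the same rule. Relative to the median, 0 loci were higher, against 4.35%.

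XLOC_026604 was that locus. Its poly(A)- level in cold was 4.14 FPKM (3.41 to 4.98), against 0.753 (0.487 to 1.11) when untreated, a ratio of 5.49 (3.54 to 8.85). High salt was higher still, at 4.98 FPKM (4.32 to 5.71), with overlapping intervals. High light had 2.10 FPKM, heat 1.02, drought 0.523, roots 0.450 and leaves 0. XLOC_058822 had 0.928 FPKM (0.688 to 1.22) in cold against 0.0908 (0.0333 to 0.198) in untreated seedlings, a ratio of 10.2 (4.38 to 29.2). Its heat level was alike, 0.974 FPKM (0.696 to 1.33), and its high salt level was 4.53 (4.08 to 5.01). In both loci the cold ratio interval lay above the pool median of 3.13, where the upper quartile was 5.52. Of 1283 pool loci with 10 reads over the pair of libraries, 25.9% had a larger ratio than XLOC_026604 and 11.1% than XLOC_058822.

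XLOC_075374 was at 1.67 FPKM (1.34 to 2.05) in cold, with untreated seedlings at 0.773 (0.575 to 1.02). Its ratio of 2.16 (1.52 to 3.11) lay below the pool median but above the lower quartile of 1.84. Of the same pool loci, 68% had a larger ratio. Ratios of XLOC_026776 (7.15), XLOC_017889 (6.95, 2.01 to 37, from 17 and 3 reads), XLOC_053899 (3.37) and XLOC_014921 (2.70) had intervals that held the pool median. The remaining 7 loci had under 10 poly(A)- reads over the pair of libraries. The cold counting interval lay above the untreated one in 5 of 14 loci, against 23.5% of the pool.

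Cold was seldom the highest condition in poly(A)- RNA, in these loci as in the pool. Among the 11 loci with 10 reads in some condition, cold was the highest of 8 conditions in 1, against 6.45% of the pool. That locus was XLOC_017889, with 0.996 FPKM (0.580 to 1.59) in cold and 0.538 (0.216 to 1.11) in heat, which overlapped. High salt was highest in 5 of 11, against 35.1% of the pool: XLOC_026604, XLOC_075374, XLOC_058822, XLOC_052773 and XLOC_069301. Relative to the library medians, cold was highest in 1 of 11, against 2.06% of the pool, and high salt in 2, against 5.8%. In none of the 14 loci did the cold interval lie above all 7 others. A cold peak of any size was already rare in the pool, and the share with separate intervals was not counted.

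**Figure D3:**
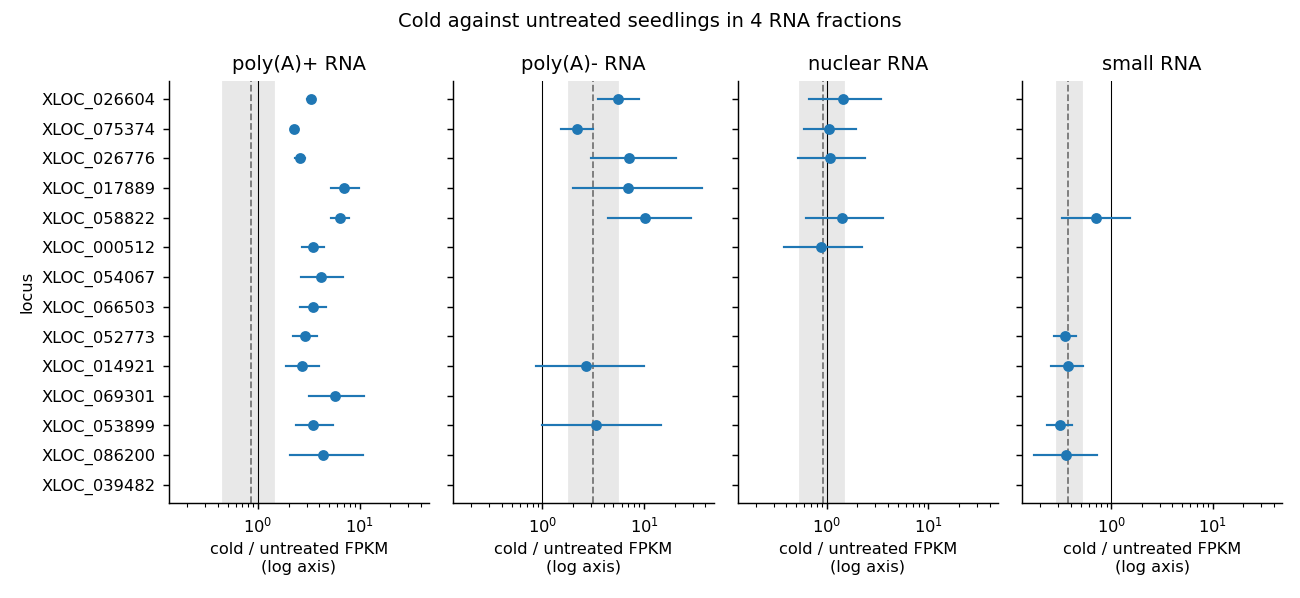
Ratio of cold to untreated FPKM (log axis) for each locus with at least 10 reads over the untreated and cold libraries and a read in untreated seedlings, in 4 RNA fractions, with exact 95% intervals. The dashed line and grey band are the median and quartiles of the pool, and the line at 1 marks equal levels. Ratios lie right of the pool in poly(A)+ RNA, which chose the loci, on both sides of its median in poly(A)- RNA and around it in nuclear and small RNA. XLOC_039482 has no point because it had no untreated read.

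In cold itself every locus had more poly(A)+ than poly(A)- RNA per length, by ratios from 8.18 (4.43 to 16.8) in XLOC_053899 to 86.8 (23.8 to 720.3) in XLOC_066503, which had 2 poly(A)- reads. That holds for 85% of the pool, and the rule favours it, since it asks for a high poly(A)+ level in cold. In high salt the order was turned in 4 loci, against 23.7% of the pool. It was turned in 2 loci in heat (5.55% of the pool), 1 in high light (7.02%) and 1 in roots (5.72%), all with overlapping intervals. In high salt XLOC_058822 had 1.25 FPKM (0.957 to 1.59) in poly(A)+ and 4.53 (4.08 to 5.01) in poly(A)- RNA, a poly(A)- level 3.64 times the poly(A)+ one. XLOC_075374 had 3.15 FPKM (2.68 to 3.68) and 3.56 (3.16 to 3.99) in high salt, which overlapped. XLOC_069301 and XLOC_086200 had 10 and 3 poly(A)- reads in high salt against 3 and 0 poly(A)+ reads. The high salt libraries as a whole were shifted the same way from untreated ones, by -1.17 in poly(A)+ and 1.08 in poly(A)- RNA, and their part in these values was not tested.

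**Figure D4:**
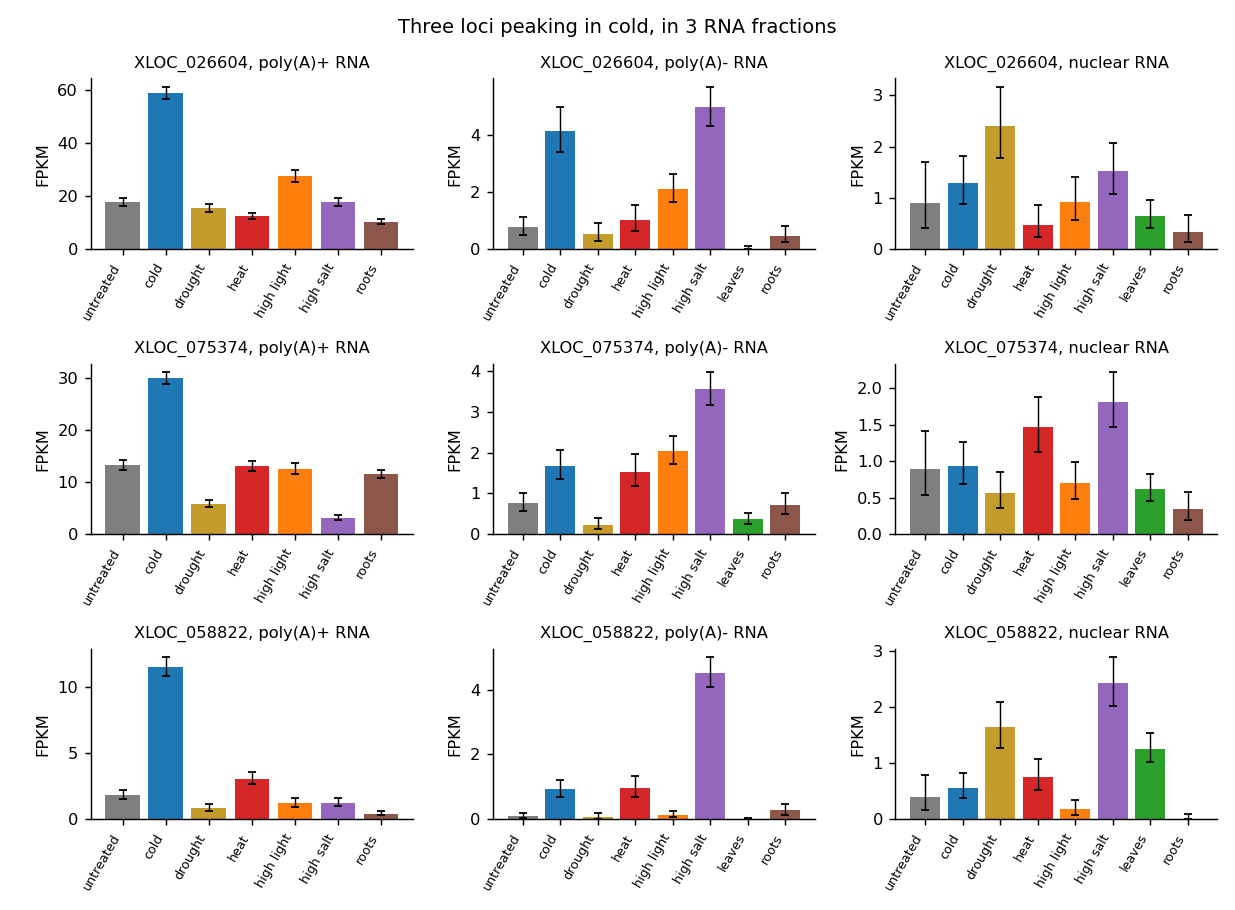
FPKM (vertical axes, separate scale in each panel) of XLOC_026604, XLOC_075374 and XLOC_058822 by condition and RNA fraction (poly(A)+, poly(A)-, nuclear), with exact 95% Poisson intervals as error bars and 1 library per bar. Cold is the tallest bar in poly(A)+ RNA, and high salt in poly(A)- RNA of all 3 loci, though it overlaps cold in XLOC_026604.

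In nuclear RNA most of the loci had few reads, which widens counting intervals, so an overlap does not show that levels were equal. The intervals of cold and untreated seedlings overlapped in all 14 loci, and the share of the pool with such an overlap was not counted. The untreated nuclear library was the shallowest long RNA library compared, with 24.6 M reads against 58.7 M in cold. Cold levels were 0 to 1.28 FPKM, with 7 loci listed at 0 in untreated seedlings. The single locus at 1 FPKM, XLOC_026604, was in cold at 1.28 FPKM (0.873 to 1.82) against 0.891 (0.407 to 1.69) when untreated, so 0 of 1 was higher, against 1.75% of 457 genes. The 5 loci with 10 reads over both libraries had ratios from 0.884 in XLOC_000512 to 1.44 in XLOC_026604, and all 5 intervals held the pool median of 0.921. The intervals are wide. That of XLOC_026604 ran from 0.670 to 3.44, so a ratio as large as its poly(A)+ one, 3.32, was inside it.

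Which condition was highest in nuclear RNA depended on whether library shifts were subtracted. Of 7 loci with 10 nuclear reads in some condition, cold was highest in 0, against 2.75% of the pool. Leaves were highest in 3 (62.7% of the pool), high salt in 2 (6.26% of the pool), and drought and untreated seedlings in 1 each. Relative to the library medians, cold was highest in 2 of 7, against 2.42% of the pool, and leaves in 0 (3.02%). XLOC_058822 had 2.44 FPKM (2.03 to 2.90) in high salt, 1.65 (1.28 to 2.09) in drought and 1.26 (1.02 to 1.54) in leaves. In cold it had 0.562 (0.370 to 0.818) and in untreated seedlings 0.398 (0.172 to 0.784), and roots had no read. Its 2 highest nuclear levels were thus in high salt and drought, not in cold. XLOC_026604 was highest in drought nuclear RNA, at 2.40 FPKM (1.78 to 3.17), which overlapped high salt, 1.51 (1.08 to 2.07), and cold. XLOC_075374 was highest in high salt, at 1.82 (1.47 to 2.22), which overlapped its heat value of 1.47 (1.12 to 1.88).

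Nuclear and poly(A)- RNA were tested against each other with limma over 8 conditions, condition as a block. Roots were among these conditions, and the choice of the loci had used root poly(A)- RNA. A call needed a 2-fold difference and a limma p of at most 0.05 after Benjamini-Hochberg adjustment. Of 959 genes tested, 0.938% were higher and 16.8% lower in nuclear RNA, with a median difference of -0.48 on log2(FPKM + 1). The filter of 1 FPKM in 3 libraries let 3 of the 14 loci through, and none was called. XLOC_026604 had 1.06 ± 0.67 FPKM in nuclear and 1.75 ± 1.85 in poly(A)- RNA (SD over 8 conditions), a difference of -0.22 ± 0.29 (SE, limma adjusted p = 0.563), and was lower in 5 of 8 conditions. XLOC_075374 differed by -0.21 ± 0.28 (limma adjusted p = 0.550), also lower in 5 of 8. XLOC_058822 differed by 0.18 ± 0.25 (limma adjusted p = 0.566), higher in 4 of 8. With each library centred on its median, XLOC_026604 and XLOC_075374 had the opposite sign. Without roots the differences of XLOC_026604, XLOC_075374 and XLOC_058822 were -0.23, -0.19 and 0.25, and none was called.

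Small RNA set 4 of the 14 loci apart. XLOC_052773, XLOC_053899, XLOC_014921 and XLOC_086200 reached 1 FPKM in small RNA, which 7.72% of the pool did, with 1182, 1004, 580 and 182 reads over 9 libraries. XLOC_058822 had 99 reads and XLOC_069301 had 50. The other 8 loci had under 10 reads in all, and XLOC_017889, XLOC_000512 and XLOC_066503 had none.

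Those 4 loci had less small RNA in cold than in untreated seedlings, where their poly(A)+ level was higher in cold. XLOC_053899 had 11.5 FPKM (9.85 to 13.3) in untreated seedlings but 3.59 (2.79 to 4.54) in cold. In the same order XLOC_052773 had 10.5 (9.14 to 12.1) and 3.71 (2.98 to 4.56), and XLOC_014921 had 7.93 (6.45 to 9.64) and 2.94 (2.15 to 3.92). These 3 were lower by the 2-fold rule, against 36.5% of 1094 genes, and 0 loci were higher, against 1.10%. XLOC_086200 had 3.29 FPKM (2.21 to 4.73) and 1.19 (0.634 to 2.04), a log2 difference of -0.97 that missed the rule. The whole cold small RNA library was lower by a median of -0.85, and relative to that median 0 of the 4 were lower, against 1.28% of genes. Their ratios of cold to untreated, 0.313 to 0.371, lay around the pool median of 0.377, so the lower level was shared with other loci.

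The 4 small RNA profiles followed the order that is common in the pool, where untreated seedlings were highest of 9 conditions in 46% and high light in 18.1% of 537 loci with 10 reads. In each of the 4, untreated seedlings and high light were the 2 highest libraries, followed by leaves in XLOC_052773 and roots in the other 3, and panicles were the lowest. The small RNA library labelled leaf has a title that says seedling, and which is right was not tested. High light had 8.94 FPKM in XLOC_053899, 8.14 in XLOC_052773, 6.45 in XLOC_014921 and 3.60 in XLOC_086200, and panicles 1.92, 1.40, 1.40 and 0.538. Pearson correlations between pairs, over 9 libraries on log2(FPKM + 1), were 0.757 to 0.965, and the pairs shared libraries and their shifts in depth. The 2 of them on chromosome 4, XLOC_052773 and XLOC_053899, lie 11050455 bases apart. Reads that map to several places could be counted in more than 1 locus, and the sources used here do not say how they were handled.

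**Figure D5:**
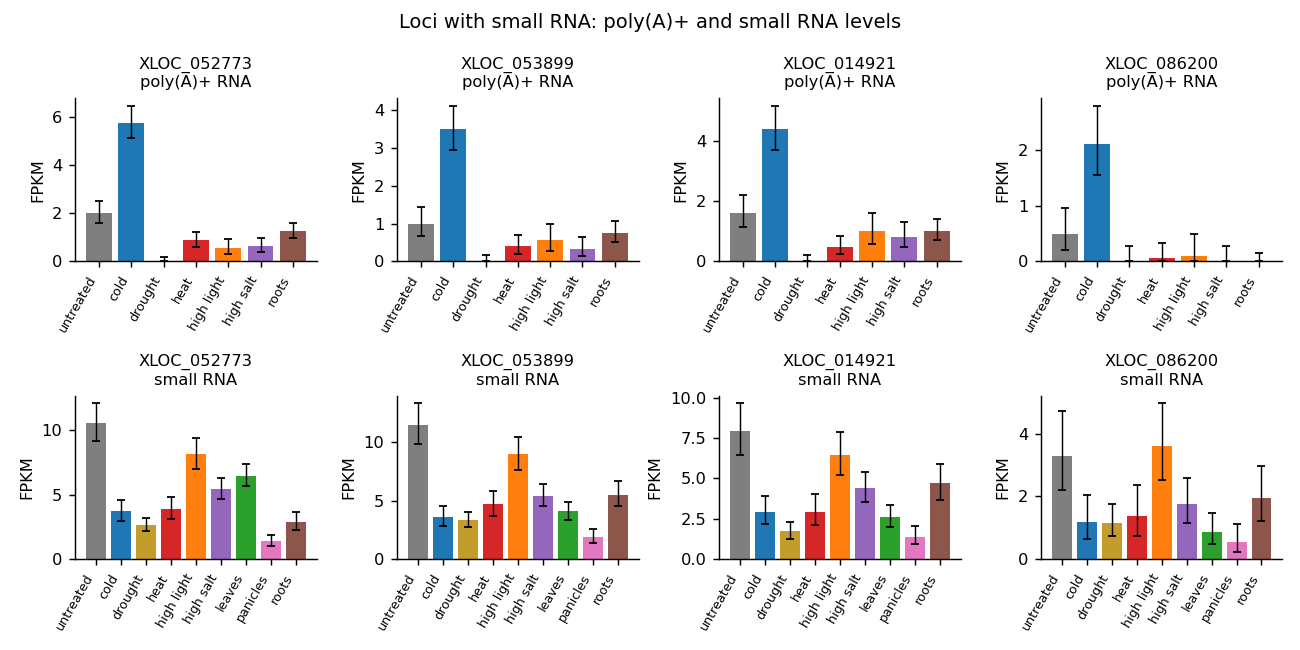
FPKM (vertical axes, separate scale in each panel) of the 4 loci that reached 1 FPKM in small RNA. The upper row shows poly(A)+ RNA in 7 conditions and the lower row small RNA in 9, with exact 95% Poisson intervals and 1 library per bar. Cold is the tallest bar in the upper row, while in the lower row untreated seedlings and high light are the tallest and panicles the lowest.

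The 14 loci did not lie together in the genome. The closest pair, XLOC_053899 and XLOC_054067, was 1034442 bases apart, and 8 loci had no other listed locus within 10000 bases. Some neighbours were also higher in cold. XLOC_039482 lay 669 bases from OS02G0618000 on the other strand, which had 5.80 FPKM in cold and 0.677 in untreated seedlings and met the cold margin (1.25). The other 3 listed loci near XLOC_039482 were lower in cold than in untreated seedlings, among them OS02G0617900 with 3.64 FPKM against 4.70. XLOC_069301 lay 147 bases from XLOC_073100 (4.65 FPKM in cold, 1.67 untreated) and XLOC_069300 (1.26 and 0.227), a pair with the same coordinates on opposite strands, whose reads may not be fully told apart. XLOC_026776 lay 727 bases from XLOC_026777 on the same strand, with 17.6 FPKM in cold and 8.61 untreated. XLOC_017889 lay 437 bases from OS11G0117450 on the same strand, with 1.22 FPKM in cold and 0 untreated, which was not its highest condition (margin -0.39). Whether such pairs are pieces of 1 transcript was not tested.

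Loci that peaked in heat were taken for comparison. Of the 61, 7 had 1 FPKM in poly(A)- RNA and 4 of those were 2-fold higher in heat, against 25.2% of genes. Relative to the library's median, which stood 0.67 higher on the log2 scale, 2 of them were, and the share of genes was not counted. In nuclear RNA 3 of 7 were 2-fold higher in heat, against 15.6%, and 1 was lower. In small RNA 0 of 5 were higher, against 0.814%. For the loci peaking in cold the counts higher in cold, without the median subtracted, were 1 of 2, 0 of 1 and 0 of 4. With it subtracted they were 0 in each fraction. As the share of genes was not counted for heat, those counts do not compare the sets. The median level in the peak condition was 0.440 FPKM in poly(A)- and 0.222 in nuclear RNA for the cold loci, and 0.0868 and 0.0448 for the heat loci. The difference between the sets was not tested, and both compare with the same untreated libraries.

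Leaves and panicles were kept out of the poly(A)+ rule because their columns could not be assigned. In 4 long RNA columns the recovered depth differed between the authors' 2 lists by at least 5.82%, and each depth recurred in the other list under another heading, while 32 columns agreed. The XLOC column headed leaf poly(A)+ RNA has the depth of the annotated list's panicle poly(A)- RNA, and its highest value among the 14 loci was 0.811 FPKM. The column headed panicle poly(A)+ RNA has the depth of the annotated list's leaf poly(A)+ RNA, and ran from 0 to 10.7 FPKM. There XLOC_017889 had 8.60 FPKM, less than 2-fold below its cold level on log2(FPKM + 1), and the other 13 loci kept the cold margin over it. The column headed panicle nuclear RNA has the depth of the annotated list's panicle poly(A)+ RNA. In it XLOC_026776 had 41.2 FPKM (39.7 to 42.8), above its 25.9 in cold. XLOC_000512 had 6.61 and XLOC_052773 2.98 there, so with that column as panicle poly(A)+ RNA 11 of the 14 loci kept the rule.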

How the data were processed

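Poly(A)+, poly(A)-, nuclear and small RNA libraries of 9 conditions were analysed. The deposited values were read as FPKM per gene. The column headers do not name a unit, and the reading rests on the values, which scale with exon length and with 1 step per library, and on an authors' class called Low FPKM. Libraries were strand-specific and depleted of ribosomal RNA, per the labels' protocols. TopHat2, DESeq2 and IRGSP-1.0 are named, without role or version, in the submitters' processing notes. The counter and the handling of multimapping reads were not stated there. Multiplying FPKM by exon length gave whole reads for 100% of 99490 values checked, within 0.05 reads and up to 200 reads. This gave reads, depth and exact intervals, computed with Python 3.11.15 and scipy 1.17.1.

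Single libraries were compared by size: 2-fold on log2(FPKM + 1) and 1 FPKM in either column. Fold changes on this scale understate low loci. Fractions were compared with limma 3.58.1, which had 137 prior and 7 residual degrees of freedom. No label names separate cultures, so limma p-values cover the spread among these libraries only, which may be technical. Tested on simulated data of 959 genes for nuclear against poly(A)- RNA, the fit called 88% of differences of 1.5 and 100% of 2.5 (log2), with 4 false calls among 759 unchanged genes.

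The loci, lists and rules were chosen with earlier results of these data known. The rule for named loci took the 8 highest in cold poly(A)+ RNA, the 5 widest and 3 narrowest margins with the 3 loci just outside, the 5 highest in cold small RNA, the 3 highest in cold nuclear RNA, and loci past the rules in other fractions or near each other. All 14 are printed, including those outside it. None matched the RefSeq table, so no gene names or sequences are given. Alternatives covered margins, pseudocounts, filters, centring, conditions left out and the replicate block. Leaf poly(A)+ and panicle long RNA columns entered alternatives only.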

Additional observations from a re-analysis of the deposited data

Results flagged for a closer look

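XLOC_026776 had 41.2 FPKM in the column headed panicle nuclear RNA, which entered no comparison, above its 10.002 FPKM in untreated and 25.9 in cold poly(A)+ RNA. The column has the depth of the library that the annotated list heads panicle poly(A)+ RNA. Which heading is right was not tested.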

How the results depend on the processing

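The number of loci peaking in cold depends on the scale. It was 14 as reported, 108 with a margin of 0.5, 0 with a margin of 2, 47 with a pseudocount of 0.1, 2 with a pseudocount of 5 (XLOC_017889 and XLOC_058822) and 9 with libraries centred, of which 4 were among the 14. It was 20 without roots, 14 or 13 with leaves as either list heads them, 11 with panicles as the annotated list heads them and 10 when the lower end of the cold interval had to pass, the last 3 counts being from alternatives chosen after seeing the data. XLOC_058822 alone passed all of centring, the pseudocount of 5, the interval, and the added leaves and panicles.

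The count of 1 locus higher in cold poly(A)- RNA was 0 with a 4-fold rule, a pseudocount of 5, the median subtracted or every other condition required, 2 with a pseudocount of 0.1 and 5 by intervals. The 3 loci lower in cold small RNA became 0 with a 4-fold rule, a pseudocount of 5, the median subtracted or every other condition required, and 4 with a pseudocount of 0.1 or by intervals, all chosen after seeing the data. The counts of 0 higher in nuclear and small RNA were 0 under all 6 alternatives.

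In limma, 9 genes were higher and 161 lower in nuclear RNA. These were 0 and 0 without a filter (limma unadjusted p under 0.05 in 933 of 7231 genes), 37 and 300 with a pseudocount of 0.1, 38 and 73 centred, 3 and 73 with panicles added, and 10 and 147 without cold. Leaving out each other condition gave 6 to 13 higher and 121 to 211 lower. The labels number only a second drought library and the columns carry no number, so no replicate number pairs samples. Without the replicate block, here the condition, the counts were 7 and 152. XLOC_026604 and XLOC_075374 reversed to 0.21 and 0.21 when centred, and XLOC_075374 to 0.10 with panicles added. XLOC_058822 fell under the filter without high salt, and centred it had 0.60 (limma adjusted p = 0.00404), under 2-fold. Where no value above shows it, the cause was not tested. Depth limits the nuclear values, with at most 45 reads in cold for any of the 14.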
